A study of Mus musculus with 63 samples.

Results

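Single neurons that were picked from the mouse visual cortex with a glass pipette were parted here by whether they also held RNA of astrocyte genes. A cell was called positive when Gfap, S100b and Aqp4 all had a value above 0 FPKM (fragments per kilobase of exon, scaled to the size of the library), and negative otherwise. The rule was applied to 60 of the 63 cells, since LS_1, LS_2 and NS_1 were set aside by name. It found 10 positive cells and 50 negative cells. The 3 selecting genes chose the cells, so their own values are a description and support nothing.

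The cells came from layer 2/3 of the primary visual cortex of male wild type C57BL/6 mice, whose age is given as 70 days. Each cell was loaded with the calcium dye Cal-520 and watched under a two-photon microscope while a moving grating was shown to the mouse. Light sensitive cells (LS, 46 cells) answered most of the repeated gratings with a calcium signal, and NS cells (17 cells) answered at most a single one. The soma was then drawn into a pipette and its RNA amplified with Smart-seq2, a full-length protocol for single cells. All cells share the wild type genotype, the strain, the anesthesia and the dye, and no group was given a drug or a deletion. Which mouse each cell came from is not given. LS and NS therefore count as 1 sample each, nothing was tested, and each SD below describes the spread of cells.

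Astrocytes are glial cells whose fine processes wrap the synapses and the somata of cortical neurons. They clear glutamate and GABA with transporters, turn glutamate into glutamine, pass ions and small molecules through gap junctions, and line blood vessels with endfeet that carry the water channel AQP4. Gfap encodes an intermediate filament that rises in astrocytes near an injury, and S100b encodes a calcium-binding protein. A pipette that reaches a soma in living tissue passes through this mesh.

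All 3 selecting genes were read in 15.9% of LS cells (7 of 44; Clopper-Pearson 95% limits 6.64 and 30.1%). The share among NS cells was 18.8% (3 of 16; limits 4.05 and 45.6%). These limits cover counting error only. The positive LS cells were LS_5, LS_16, LS_19, LS_20, LS_27, LS_36 and LS_46, and the positive NS cells were NS_3, NS_5 and NS_10. Single selecting genes were far more common than the set. In LS cells, Gfap was above 0 in 30 of 44, S100b in 25 and Aqp4 in 13. Of the 44 LS cells, 7 had none of the 3 genes, 13 had 1, and 17 had 2, and Aqp4 was the missing gene in 13 of those 17. The set therefore turned mostly on whether Aqp4 was read.

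Reads behind these values were recovered from the steps of the FPKM values, and they show how thin the threshold was. LS_20 entered with 1 Aqp4 read beside 8 Gfap and 4 S100b reads, and LS_5 with 2 Aqp4 reads beside 6 Gfap and 54 S100b reads. All 3 NS cells had a single read of 1 selecting gene, which was S100b in NS_3 and NS_10 and Aqp4 in NS_5. LS_16 lay deepest inside, with 300 Gfap, 161 S100b and 1168 Aqp4 reads. Just outside were LS_14, with 1507 Gfap and 456 Aqp4 reads but none of S100b, LS_30, with 838, 145 and none, and NS_14, with 1451 Gfap and 30 S100b reads but none of Aqp4. Gfap alone was no mark of the positive cells, because LS_13, which lacked S100b and Aqp4, had 3558 Gfap reads and the 7 positive LS cells had 6 to 300.

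Depth was unequal between the groups. The 44 LS cells held 368512 to 2549928 reads on listed genes and the 16 NS cells 153316 to 902306. Within LS, positive cells had 669628 to 1947412 reads and 2627 to 11581 genes above 1 FPKM, both inside or near the span of the negative cells (1640 to 11089 genes). Within NS, positive cells were shallow, with 153316 to 308124 reads and 1488 to 2040 genes, against a median of 3144 genes in negative cells. The level of 1042 odor, pheromone and taste receptor genes, which cortical cells hardly use, was given as a percentage of what reads spread evenly over exons would leave and served as a measure of reads from genomic DNA. It was 0.0773 to 26.8% in positive LS cells (median 0.541%) and 0.00 to 38.3% in negative LS cells (median 2.88%), but 12.8, 39.7 and 92.0% in NS_10, NS_3 and NS_5. Its part in the NS results was not tested.

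The positive cells held different kinds of library, and the LS results were therefore also computed without those poor in neuronal RNA. LS_5, LS_20, LS_27, LS_36 and LS_46 had 18 to 20 of the 20 pan-neuronal genes above 0, beside 13 to 24 of the 26 genes of a list of astrocyte genes that leaves out the selecting ones (the astrocyte core list). LS_16 had 24 astrocyte core genes but 4 pan-neuronal genes, and LS_19 had 20 and 7. Snap25, the synaptic membrane fusion protein of neurons, had no read in either of them. The 3 positive NS cells held few neuronal genes as well, with 7 in NS_3, 2 in NS_5 and 6 in NS_10. Most pan-neuronal genes were thus not read in LS_16, LS_19 and the 3 NS cells, which are labelled as picked neurons. NS_3 held other neuronal RNA, with 6 of 12 excitatory and 8 of 10 dendritic genes, and its 7 pan-neuronal genes equal the median of negative NS cells. Low neuronal content was not particular to positive cells, since 2 of 37 negative LS cells (LS_13 with 6 and LS_43 with 2) and 9 of 13 negative NS cells also had fewer than 10 of the 20 genes.

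**Figure D1:**
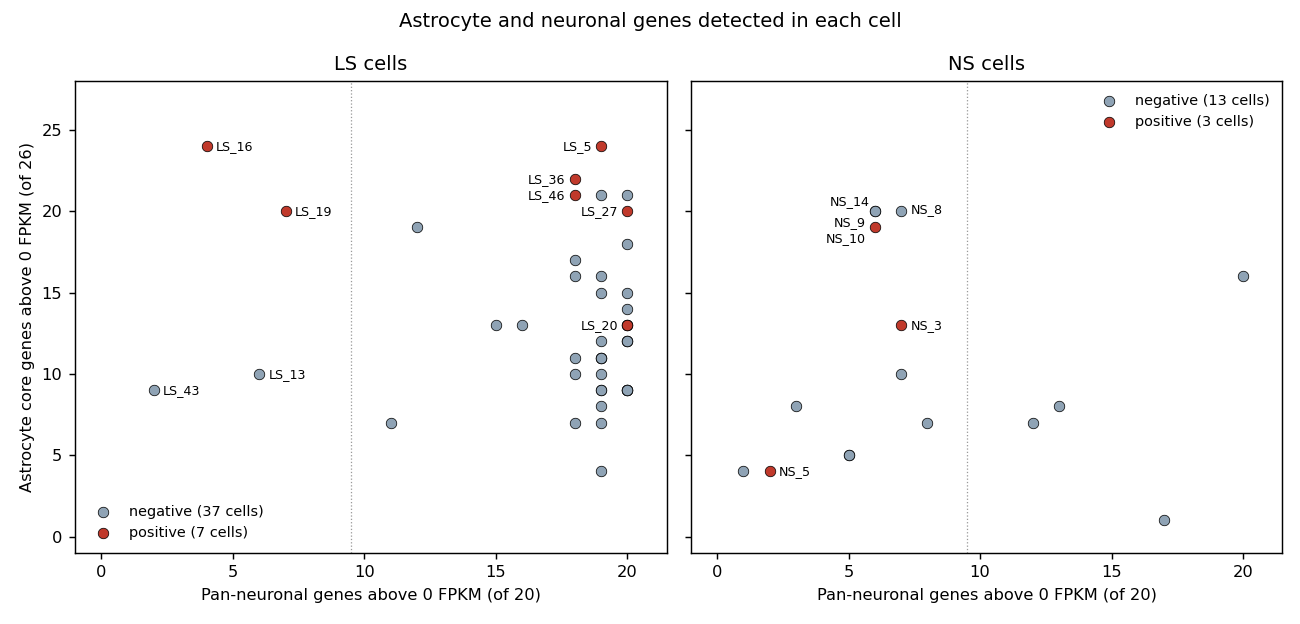
Number of the 26 astrocyte core genes (vertical axis) against the number of the 20 pan-neuronal genes (horizontal axis) above 0 FPKM, in 44 LS cells (left) and 16 NS cells (right). Each point is a cell, red for positive and gray for negative, cells with equal numbers overlap, and the dotted line parts cells with fewer than 10 pan-neuronal genes. LS_16 and LS_19 lie at the upper left with 24 and 20 astrocyte genes, and 5 positive LS cells lie at the right with 18 to 20 neuronal genes.

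In LS cells, astrocyte genes outside the rule were higher in positive than in negative cells and neuronal genes were lower. Of the 26 astrocyte core genes, 25 had a mean of at least 1 FPKM over the 60 cells, the limit for a comparison. Of these 25, 17 had a mean at least 2-fold higher in the 7 positive than in the 37 negative cells, none was 2-fold lower, and all 25 had a ratio above 1. Over all 16077 genes compared, 17.5% were at least 2-fold higher. The median log2 ratio of the list was 2.31 against -0.46 over all genes (-0.34 with genes lacking reads in a group set at 3 reads). A stricter call, which also asked that the median of the positive cells exceed the 75th percentile of the negative cells, took 14 of the 25 genes and 6.93% of all genes. The astrocyte core score of a cell, the mean of log2(FPKM + 1) over the 26 genes, was 4.11 ± 1.59 (SD, 7 cells) in positive and 2.04 ± 0.67 (SD, 37 cells) in negative LS cells, a difference of 2.07. The groups overlapped, since the lowest positive cell (LS_20) scored 2.06 and the highest negative cell 3.61.

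The pattern was also present without LS_16 and LS_19, the positive libraries poorest in neuronal genes. Among the LS cells with at least 10 of 20 pan-neuronal genes, chosen once the values were known, 5 positive cells stood against 35 negative cells. There, 18 of 25 astrocyte core genes were at least 2-fold higher, against 18.3% of all genes, and 15 met the stricter call, against 8.63%. The difference in score was 1.87. The median log2 ratio of the list was 1.56, lower than with all 7 cells, and -0.34 over all genes.

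Among genes of transmitter clearance, the glutamate transporters differed more than Glul. Slc1a2, the main glutamate transporter of the forebrain (GLT-1), had a lowest, median and highest level of 0.104, 11.8 and 1271 FPKM in positive LS cells and 0, 6.94 and 189 FPKM in negative ones. LS_16 alone carried 82.8% of the summed level, LS_36 had 187 and LS_46 54.3 FPKM, and the other positive cells lay among the negative ones. The log2 ratio of means was therefore 3.76 with LS_16 and 1.44 without it. Slc1a3, the second glial glutamate transporter (GLAST), spanned 0, 19.2 and 689 FPKM in positive and 0, 0.256 and 97.7 FPKM in negative cells, with a log2 ratio of 3.59 that became 1.98 without LS_16. Glul, which makes glutamine from glutamate, was read in all 7 positive cells at 37.4 to 163 FPKM, above the negative median of 18.8 in each, but its means differed by a log2 ratio of 0.54 because single negative cells reached 574 FPKM.

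Some junction and surface genes were read in every positive LS cell. Gja1, which encodes connexin 43, had a lowest, median and highest level of 36.4, 89.2 and 530 FPKM in positive LS cells, and all 7 lay above the negative median of 3.05 FPKM. LS_19 was the highest of them, and the log2 ratio was 2.51 with it and 1.75 without it. Ppap2b (now Plpp3), a lipid phosphatase of astrocyte membranes, was 56.0 to 337 FPKM in the 7 cells, against a median of 4.31 and a highest value of 315 in negative cells, a log2 ratio of 1.70. S1pr1, a receptor for sphingosine-1-phosphate, followed the same order with 8.96 to 453 FPKM against a median of 0.111 (log2 ratio 2.31, 1.60 without LS_46). LS_20 held all 3 genes, although it had the fewest astrocyte core genes of the 7.

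In all, 5 of 7 genes of junctions and ion transport were at least 2-fold higher, as were 3 of 5 genes of transmitter uptake, against 17.5% of all genes. Gjb6, connexin 30, overlapped widely, with a median of 117 FPKM in positive and 47.6 in negative cells. Its log2 ratio of 0.48 fell to -0.15 without LS_46. Slc4a4, a bicarbonate transporter, was read in all 7 positive cells at a median of 18.6 FPKM against 0.352 in negative cells, and its log2 ratio of 3.31 became 1.58 without LS_16.

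Metabolic genes gave 5 of 6 members at least 2-fold higher, against 17.5% of all genes. Aldoc, the aldolase of astrocytes, had a lowest, median and highest level of 1.73, 133 and 927 FPKM in positive and 0, 6.48 and 432 FPKM in negative LS cells, a log2 ratio of 2.41 (1.58 without LS_16). Aldh1l1, a folate enzyme used as a general astrocyte marker, rested on a single cell. It was 555 FPKM in LS_16 and at most 15.3 FPKM in the other 6, so that its log2 ratio of 3.76 became 0.36 without LS_16. Apoe, the lipid carrier, was the exception in the group, because it was high in nearly all cells. It was above 0 in all 37 negative LS cells, at 9.34 to 7963 FPKM with a median of 990, and at 191 to 9441 FPKM in positive cells, and its log2 ratio of 0.71 turned to -0.14 without LS_46.

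Of 7 genes of receptors, matrix and transcription, 4 were at least 2-fold higher, against 17.5% of all genes. Ntsr2, a neurotensin receptor found on astrocytes, was 569 FPKM in LS_36, 339 in LS_46 and 50.8 in LS_16, below 10 FPKM in LS_5, LS_19 and LS_27, and at 0 in LS_20. In negative LS cells it was above 0 in 10 of 37, at most 69.6 FPKM, and the log2 ratio was 4.12, or 3.08 without LS_36. Fgfr3, a fibroblast growth factor receptor, had the largest log2 ratio of the list (5.32, or 3.92 without LS_16) and the same 3 cells at the top, with 487 FPKM in LS_16, 152 in LS_36 and 77.9 in LS_46. Sox9, a transcription factor of astrocytes, was read in all 7 positive cells at 5.48 to 256 FPKM against a negative median of 0.511, yet a negative cell, LS_39, had 645 FPKM. Its log2 ratio of 1.16 became 0.65 without LS_46.

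**Figure D2:**
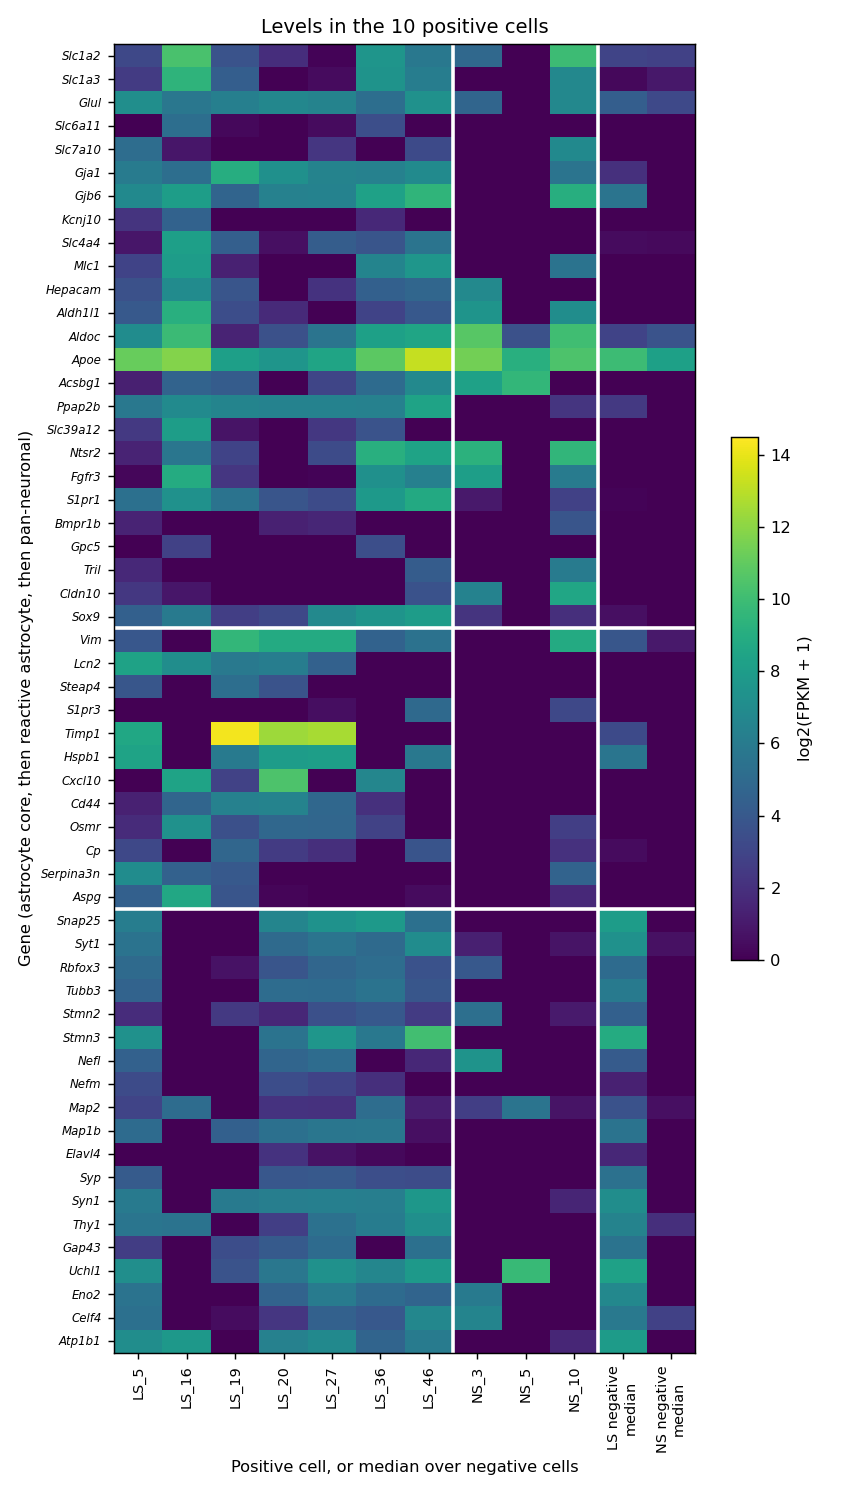
Levels as log2(FPKM + 1), by color, of 25 astrocyte core, 12 reactive astrocyte and 19 pan-neuronal genes (rows) in the 7 LS and 3 NS positive cells and as the median over negative LS and NS cells (columns). Slc1a2, Ntsr2 and Fgfr3 are bright in LS_16, LS_36 and LS_46, Timp1 is brightest in LS_19, LS_20 and LS_27, and the pan-neuronal block is nearly empty in LS_16, LS_19 and the NS cells.

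Genes that astrocytes share with other cells followed with a smaller margin. Of 17 such genes, 10 were at least 2-fold higher in positive LS cells, 8 by the stricter call, and 1 was lower, while 17.5% of all genes were higher and 6.93% met the stricter call. The median log2 ratio was 1.15. LS_16 decided much of this, since 6 genes were 2-fold higher without it, and 7 were in the 5 against 35 LS cells with at least 10 pan-neuronal genes, against 18.3% of all genes. Htra1, a secreted protease, was read in all 7 positive cells at 8.58 to 2188 FPKM, while the negative median was 0 and the highest negative cell had 122 (log2 ratio 4.15, 2.05 without LS_16). Bcan, the matrix proteoglycan brevican, was at most 60.1 FPKM in negative cells and reached 834 FPKM in LS_16, 257 in LS_36 and 83.7 in LS_46 (log2 ratio 4.93, 3.42 without LS_16). Prdx6, an antioxidant enzyme, was at 61.7 to 203 FPKM in positive cells against a median of 26.5 (log2 ratio 1.79). Mt2, a metallothionein that shares sequence with its neighbors in the family, lay at 309 to 3319 FPKM against a median of 156 (log2 ratio 1.90). The lower gene was Fabp7, a fatty acid binding protein of immature glia, which had reads in 1 of 7 positive and 9 of 37 negative cells.

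A list of 12 genes that rise in astrocytes after injury or inflammation ordered the positive LS cells partly otherwise than the transporters did. Its score was 5.54 in LS_19, 5.30 in LS_20, 4.26 in LS_5 and 3.85 in LS_27, and 1.69 and 1.35 in LS_46 and LS_36. LS_16, the cell highest in Slc1a2, lay between with 3.40, and negative LS cells reached 4.12. Of the 12, 9 were at least 2-fold higher in positive LS cells and 6 met the stricter call, against 17.5 and 6.93% of all genes. The median log2 ratio was 2.68, and none was lower. Timp1, an inhibitor of matrix proteases, was 19520 FPKM in LS_19, 6268 in LS_27 and 5338 in LS_20, each above the highest negative LS cell (1778 FPKM), then 398 FPKM in LS_5 and 0 in LS_16, LS_36 and LS_46. Vim, the intermediate filament vimentin, had the same 3 cells at the top, with 767, 473 and 462 FPKM in LS_19, LS_27 and LS_20 against a highest negative value of 256 FPKM. The log2 ratios were 4.69 for Timp1 (3.52 without LS_19) and 2.80 for Vim (2.21 without LS_19). The cells highest in Timp1 and Vim were thus not those highest in Slc1a2, Ntsr2 and Fgfr3.

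The remaining genes of that list were spread. Cxcl10, an interferon-induced chemokine, was 1422 FPKM in LS_20, 346 in LS_16 and 100 in LS_36, with at most 48.0 FPKM in negative cells (log2 ratio 6.52, 4.69 without LS_20). Osmr, the oncostatin M receptor, reached 159 FPKM in LS_16 and 2.47 to 27.5 FPKM in 5 other positive cells, against at most 35.6 in negative cells (log2 ratio 3.82, 2.38 without LS_16). Cd44, a hyaluronan receptor, was highest in LS_20 with 88.0 and LS_19 with 82.0 FPKM, close to the highest negative cell with 75.3 (log2 ratio 2.53). In the 5 against 35 LS cells with at least 10 pan-neuronal genes, 7 of 12 were at least 2-fold higher and 3 met the stricter call, against 18.3 and 8.63% of all genes.

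**Figure D3:**
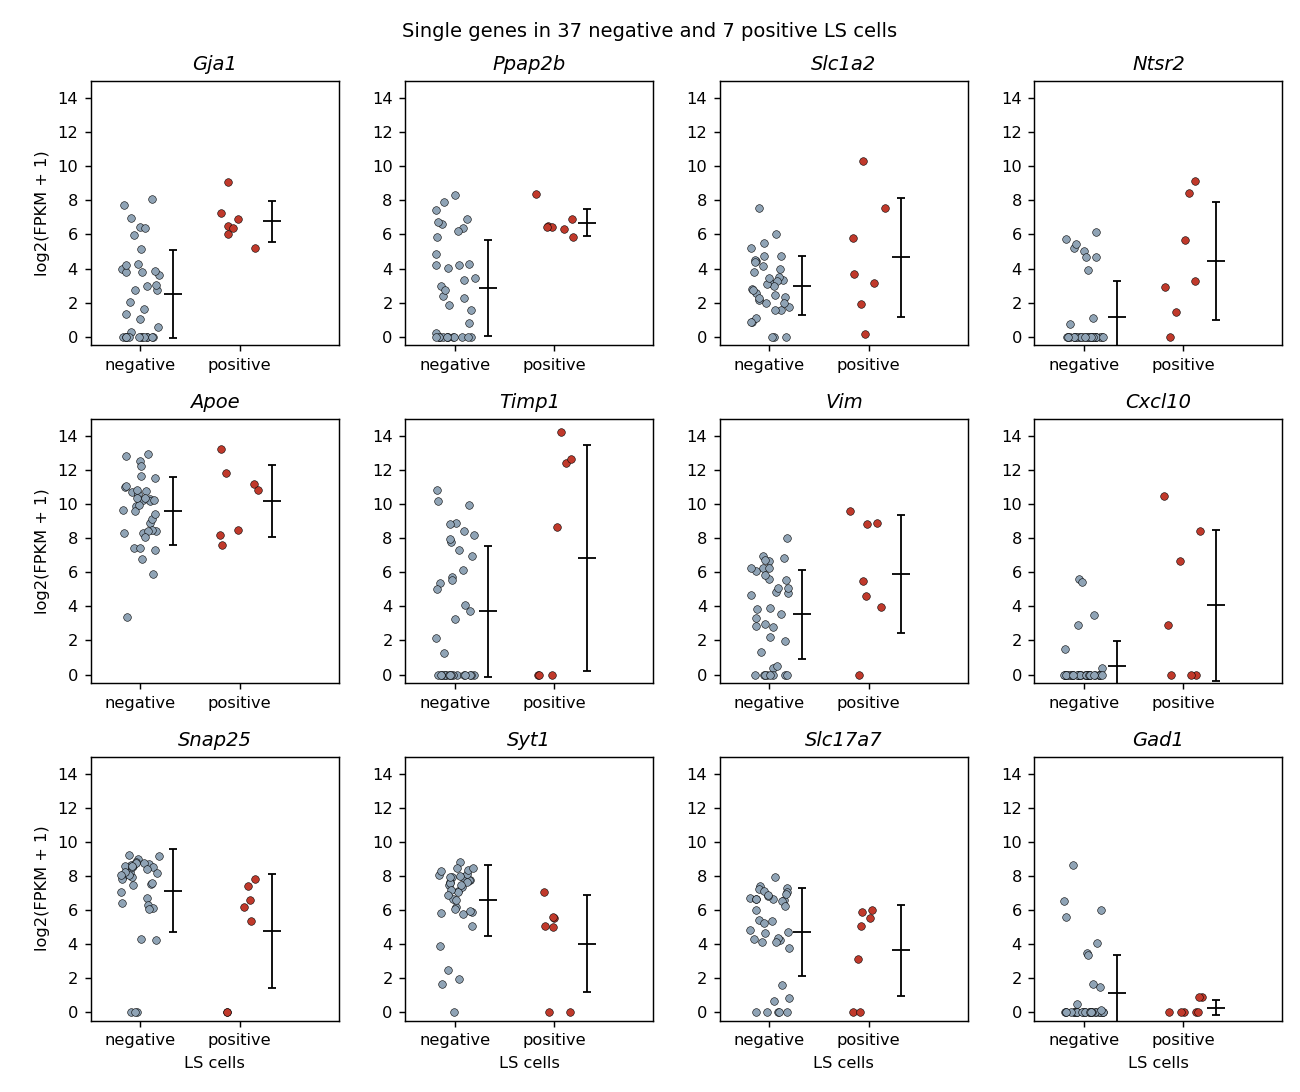
Level of 12 genes as log2(FPKM + 1) (vertical axis) in 37 negative (gray) and 7 positive (red) LS cells. Each point is a cell, and the bar beside each group gives the mean and SD over cells. Gja1 and Ppap2b lie above the negative mean in all 7 positive cells, Timp1 is parted into 4 cells with reads and 3 at 0, and Snap25 and Syt1 are lower in positive cells, with 2 of them at 0.

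Neuronal genes were the counterpart. Of 20 pan-neuronal genes, 17 were at least 2-fold lower in positive LS cells, against 37.3% of all genes, and none was higher. The median log2 ratio was -1.52. The pan-neuronal score was 3.65 ± 1.83 (SD, 7 cells) in positive and 5.31 ± 1.75 (SD, 37 cells) in negative LS cells, a difference of -1.66, and the 2 groups overlapped. Snap25 was 0 in LS_16 and LS_19 and 40.3 to 225 FPKM in the other 5 positive cells, each below the negative median of 262 FPKM (log2 ratio -1.58). Syt1, the calcium sensor of vesicle release, was also below the negative median of 160 FPKM in all 7, at 133 FPKM or less (log2 ratio -1.97, -2.65 without LS_46, the highest). Map2, a dendritic microtubule protein, was the gene of the list with the smallest difference (log2 ratio -0.15).

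Pan-neuronal genes were also lower in the positive cells with more neuronal RNA. In the 5 against 35 LS cells chosen for having at least 10 pan-neuronal genes, 13 of 20 pan-neuronal genes were at least 2-fold lower, against 34.1% of all genes, with a median log2 ratio of -1.25. Since that choice used the same genes, this count is a description. The excitatory list did not stand apart there, since 8 of 12 genes were 2-fold lower with all 7 cells but 4 of 12 with these 5 cells, near the share of all genes. Slc17a7, the vesicular glutamate transporter of excitatory neurons, was 0 in LS_16 and LS_19 and 7.82 to 61.8 FPKM in the other 5, with a median of 40.2 FPKM in negative cells (log2 ratio -1.13, -0.91 without LS_16). In the 5 against 35 cells its median was 44.7 FPKM in positive and 42.4 FPKM in negative cells. Camk2a, the kinase of excitatory synapses, had medians of 269 and 670 FPKM (log2 ratio -1.01, -0.79 without LS_16).

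Most inhibitory genes had a lower mean in the positive LS cells. Of 11 compared, 9 were at least 2-fold lower, against 37.3% of all genes, and 1 was higher, against 17.5%. Of the 9 lower genes, 4 (Gad2, Dlx1, Sst and Vip) had no read in any of the 7 cells, as had 1950 of the 16077 genes compared. The mean score of the list hardly differed, at 0.67 in positive and 0.70 in negative LS cells. Gad1, which makes GABA, had 15 reads in all in 2 positive cells, both under 1 FPKM, while it was above 0 in 11 of 37 negative cells and reached 395 FPKM in LS_14 (log2 ratio -6.11, -6.92 without LS_27). Single negative cells set such values, since most of the 37 had no Gad1 read either. Genes that nearly all cells use moved little, as none of 10 housekeeping genes differed 2-fold in either direction and their median log2 ratio was -0.11.

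**Figure D4:**
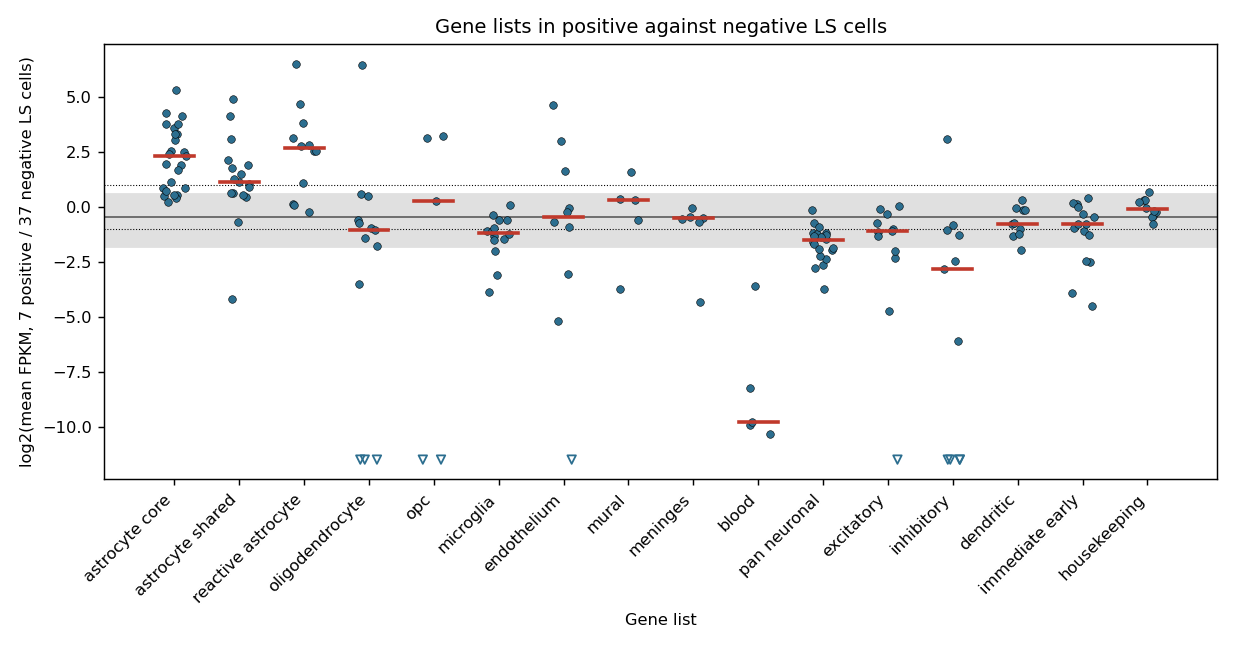
Log2 ratio of mean FPKM in 7 positive to 37 negative LS cells (vertical axis) for the compared genes of 16 lists (horizontal axis). Each point is a gene, open triangles at the bottom are genes without a read in the positive cells, red bars are medians (triangles counted at the bottom), the gray band runs from the 25th to the 75th percentile of all genes compared with their median as a line, and dotted lines mark 2-fold. The astrocyte core median lies at 2.31 and the pan-neuronal median at -1.52, and blood genes lie lowest.

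None of 14 microglial genes was at least 2-fold higher in positive LS cells (17.5% of all genes were), 9 were lower (37.3% of all genes), and the median log2 ratio was -1.17. The mean score of the list on the log2(FPKM + 1) scale did not follow, at 2.61 in both groups, and positive cells had reads of 7.86 ± 4.49 and negative cells of 6.43 ± 3.24 of the 14 genes (SD over cells). In the 5 against 35 LS cells with at least 10 pan-neuronal genes, 4 of 14 were lower, against 34.1% of all genes. C1qb, a complement subunit of microglia, had a median of 92.8 FPKM in positive and 137 in negative cells (log2 ratio -0.60). The summed level of the list was 0 to 1936 FPKM in positive and 22.7 to 5765 FPKM in negative cells. LS_16, the cell richest in astrocyte transporters, had reads of none of the 14, whereas LS_5 had reads of all 14.

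The counts of the next lists stand beside 17.5% of all genes higher and 37.3% lower in positive LS cells. Oligodendrocyte genes gave 1 of 13 higher and 7 lower. The higher gene was Olig1, a transcription factor of that lineage, with 58.2 FPKM in LS_46, 40.7 in LS_27, 13.2 in LS_5 and none in the other 4, and it was read in 1 of 37 negative cells at 6.63 FPKM (log2 ratio 6.48, 5.65 without LS_46). Of the endothelial list, 3 of 10 were higher and 3 lower. Of 5 oligodendrocyte precursor genes 2 were higher and 2 lower, of 5 mural genes 1 was higher and 1 lower, and of 6 meningeal genes none was higher and 1 was lower. Mean scores did not follow the lower counts. They were 0.89 in positive and 0.73 in negative LS cells for oligodendrocytes, 1.23 and 0.93 for endothelium and 0.58 and 0.34 for precursors. For mural cells they were 1.13 and 1.01 and for meninges 2.89 and 2.91. For blood the means were 0.40 and 1.31, a gap within the SD over negative cells (2.41). The blood medians were 0.13 and 0.27, and the negative cell LS_45 scored 12.7. All 5 blood genes were lower, and the highest value of each among negative cells lay in LS_45, whose Hbb-bs level was 25416 FPKM. Globin genes share sequence, so the split of reads among them is uncertain. Immediate-early genes, which neurons switch on with activity, gave none higher and 6 of 15 lower, and of 10 dendritic mRNAs none was higher and 4 were lower. Both shares lie near the 37.3% of all genes.

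Genes were also chosen by size alone. For this, the 10 largest and 10 smallest ratios in LS were taken among genes whose higher group had a mean of 20 FPKM or more and reads in 50% or more of its cells. Etnppl, a phospholyase of phosphoethanolamine known from astrocytes, was 153 FPKM in LS_36, 109 in LS_16 and 9.90 in LS_19, and it was at most 5.62 FPKM in negative LS cells (log2 ratio 7.30, 6.33 without LS_36). Gpr37l1, a receptor of astrocytes, was 674 FPKM in LS_16, 619 in LS_46 and 278 in LS_36 against at most 100 (log2 ratio 5.37). Dio2, which activates thyroid hormone in astrocytes, rested on LS_16 with 770 FPKM, though LS_36 had 54.2 and no negative cell more than 8.54 (log2 ratio 7.26, 4.02 without LS_16). Cbs, an enzyme of sulfur amino acids, and Mfsd2a, a lipid transporter, were likewise highest in LS_16, with 449 and 495 FPKM. Their log2 ratios were 6.36 and 5.77, or 4.71 and 2.97 without LS_16.

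Lmcd1 was 87.2 to 127 FPKM in LS_16, LS_19, LS_20 and LS_27 and at most 12.1 in negative cells (log2 ratio 6.98). Il33, an alarm cytokine, and Rsad2, an interferon-induced antiviral gene, were highest in LS_20, with 300 and 747 FPKM, as was Cxcl10 (log2 ratios 6.33 and 5.91, or 4.92 and 3.85 without LS_20). Ube2v1 had the largest ratio of all (9.80), but 98.2% of its summed level lay in LS_16 and the ratio was 4.24 without it. The 10 genes at the lower end belonged to none of the lists. Adrb1, an adrenergic receptor, had 8 reads in the 7 positive cells and a median of 8.64 FPKM in negative ones (log2 ratio -6.34, -8.34 without LS_27), and Bdnf, the neurotrophin, had 41 reads and reached 536 FPKM in the negative cell LS_3 (log2 ratio -4.97, -5.68 without LS_27). The others were Tmem25, Fam217b, Ube2ql1, Fxyd6, the GABA receptor subunit Gabrd, Gfra4, Cpne7 and Cdkn2d, with log2 ratios of -6.02 to -4.15. In NS cells, Gabrd and Fxyd6 went the other way, with log2 ratios of 6.27 and 4.73. Those of Tmem25 and Cpne7 were -0.36 and -5.75 there, and the rest of the 10 genes had no read in the positive NS cells.

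The astrocyte score did not climb evenly with the number of selecting genes. In LS cells, the mean score was 1.67 ± 0.55 (SD, 7 cells) with none of the 3 genes, 2.11 ± 0.66 (13 cells) with 1, 2.13 ± 0.71 (17 cells) with 2 and 4.11 ± 1.59 (7 cells) with all 3. Cells with 1 and with 2 selecting genes differed by less than their spread. The pan-neuronal score was 6.11 ± 0.34, 4.30 ± 2.34, 5.76 ± 1.19 and 3.65 ± 1.83 in the same order. The 7 cells with none of the genes, which are the cleanest by this measure, still had 7 to 15 of the 26 astrocyte core genes above 0.

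**Figure D5:**
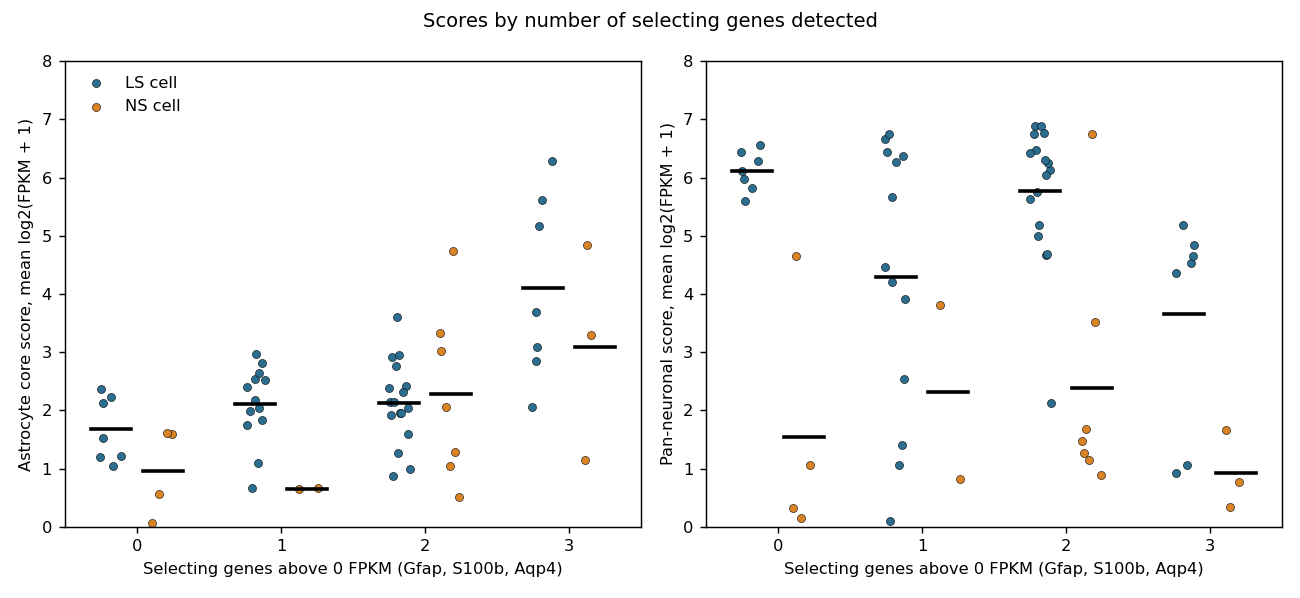
Astrocyte core score (left) and pan-neuronal score (right), each the mean log2(FPKM + 1) of its list in a cell, against the number of selecting genes above 0 FPKM. Each point is a cell, blue for LS and orange for NS, and bars are means. In LS cells the astrocyte means lie at 1.67, 2.11 and 2.13 for 0, 1 and 2 genes and at 4.11 for 3.

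In NS cells, the astrocyte core score was above the negative median of 1.28 in NS_3 (3.29) and NS_10 (4.84) but not in NS_5 (1.14). The negative cells NS_14 (4.74) and NS_9 (3.33) lay above NS_3. Of 25 astrocyte core genes, 17 were at least 2-fold higher than in the 13 negative cells, against 12.2% of all genes, and 9 met the stricter call, against 1.86%. Another 6 were at least 2-fold lower, among them 4 without any read in the 3 cells. The median log2 ratio was 1.77, or 1.88 with those 4 genes set at 3 reads over the group. The share of all genes that were at least 2-fold lower was 77.7%, and 11554 of the 16077 genes had no read in the 3 positive cells. The score was 3.09 ± 1.86 (SD, 3 cells) against 1.62 ± 1.35 (SD, 13 cells), a difference of 1.46. NS_10 carried much of it, since 9 genes were 2-fold higher and the difference was 0.59 without it.

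The positive NS cells did not hold the same astrocyte genes. NS_10 had 19 of 26, with 982 FPKM of Slc1a2, 735 of Ntsr2 and 536 of Gjb6. NS_3 had 13, with 647 FPKM of Ntsr2 and none of Gjb6, and Slc1a2 was far lower there than in NS_10. NS_5 had 4, among them Aldoc (11.2 FPKM), Apoe (576 FPKM) and Acsbg1 (789 FPKM), and none of Slc1a2, Ntsr2 or Gjb6. Slc1a2 had a log2 ratio of 2.49 that turned to -2.05 without NS_10, because the negative cell NS_14 had 606 FPKM. Aldoc was 1688, 11.2 and 1042 FPKM in NS_3, NS_5 and NS_10, against a median of 12.3 and a highest value of 1070 in negative NS cells (log2 ratio 1.88, 1.09 without NS_3). Apoe was above the negative median of 298 FPKM in all 3, at 2769, 576 and 1394 FPKM in the same order (log2 ratio 1.13, 0.45 without NS_3).

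Of the 7 genes of receptors, matrix and transcription, 6 were at least 2-fold higher in positive NS cells, against 12.2% of all genes, and 1 was lower, against 77.7%. Only 3 of the 7 met the stricter call, against 1.86% of all genes. Ntsr2 had a log2 ratio of 4.24 in NS and 4.12 in LS, and Fgfr3 one of 2.43 in NS, which was 0.60 without NS_3, and 5.32 in LS. Negative NS cells reached 159 FPKM of Ntsr2. Cldn10, a tight junction gene, was among the genes named by size, with 83.8 FPKM in NS_3, 388 in NS_10 and none in NS_5, or 242 reads in the 3 cells, against 2 reads in the 13 negative ones. In LS cells it was at most 11.6 FPKM in positive and 28.8 FPKM in negative cells. Sox9, read in every positive LS cell, had 7 reads in the 3 NS cells. Whether LS and NS differ in these genes was not tested.

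Of 17 genes that astrocytes share, 7 were at least 2-fold higher in positive NS cells and 2 lower, and 4 were higher without NS_3, against 12.2% of all genes higher and 77.7% lower. Of the reactive list, 1 of 12 was higher and 8 were lower, and Timp1 had no read in the 3 cells. Of the pan-neuronal list, 3 of 20 were at least 2-fold higher and 14 were lower, which is near the 77.7% of all genes, so the lower neuronal count is no result about that list in NS. Snap25 had no read in the 3 cells, and a count of 0 allows up to 3 reads. The neuronal score was 0.92 ± 0.68 (SD, 3 cells) and 2.12 ± 1.97 (SD, 13 cells), within the spread of the negative cells.

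Other glial lists were mixed in the positive NS cells. Of 13 oligodendrocyte genes, 3 were at least 2-fold higher and 8 were lower, all 8 without a read in the 3 cells, while 12.2% of all genes were higher and 77.7% lower. Olig1 was 276 FPKM in NS_3 and 1667 in NS_10 and at most 36.2 FPKM in negative NS cells (log2 ratio 7.86, 5.63 without NS_10). Sox10, another factor of that lineage, was 2292 FPKM in NS_10 and 0 in NS_3 and NS_5. Of 14 microglial genes, 5 (Ctss, Trem2, Aif1, Fcrls and Siglech) were higher and 4 lower, against the same 12.2 and 77.7% of all genes, with summed levels of 1453 to 7938 FPKM in positive and 23.2 to 15781 FPKM in negative NS cells, and the defining genes P2ry12, Tmem119 and Csf1r had no read in the 3 cells. Of 10 mRNAs known from dendrites, 5 were at least 2-fold higher and 2 lower, against 12.2 and 77.7% of all genes. Camk2a, one of them, was 4032 FPKM in NS_3, 547 in NS_5 and 0.802 in NS_10. Its log2 ratio of 1.53 turned to -0.95 without NS_3. The lists of vessel, precursor, meningeal and blood cells had at most 1 gene each that was 2-fold higher (endothelium 1 of 10, mural 1 of 5, precursor 1 of 5, meninges 0 of 6, blood 1 of 5). The part of these cell types, of depth and of genomic reads in the NS values was not tested.

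Negative cells of both groups held astrocyte RNA too. NS_14 had 20 of 26 astrocyte core genes, 6 of 20 pan-neuronal genes and a score of 4.74, above 2 of the 3 positive NS cells, and it missed the rule by lack of an Aqp4 read. NS_8 and NS_9 had 20 astrocyte core genes each, though their receptor-gene levels were 112 and 48.3%. Among LS cells, LS_30 had 21 astrocyte core genes and 20 of 20 pan-neuronal genes and lacked only S100b. Whether the astrocyte RNA of a library came from a whole glial cell, from fragments around the soma or from RNA free in the pipette was not tested, and the files cannot tell these apart.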

How the data were processed

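The authors trimmed reads with AfterQC, aligned them with STAR 2.5.3a to GRCm38, counted them per gene with featureCounts and deposited FPKM values made with scater, for protein-coding genes and 1 column a cell. FPKM is no count, so no count model was fitted. The members, lists and call rules were chosen with earlier results of these data known.

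Whole reads were recovered from the FPKM steps with exon lengths of GENCODE M21, or a solved length, for all but 1684 of 20179 genes; the solved genes hold 99.1% of values above 0; 99.995% of values under 200 reads were whole within 0.01 reads. In totals, those 1684 genes entered with FPKM times annotated length (368512 to 2549928 reads a cell in LS, 153316 to 902306 in NS). Another 4 rows with a repeated name were dropped.

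A log2 ratio is that of mean FPKM over positive and negative cells within LS or NS, and a score is the mean of log2(FPKM + 1) over a list. Genes needed a mean of at least 1 FPKM over the 60 cells; a call needed 2-fold. Named genes are list members a sentence is about, or the 10 largest and smallest ratios by size. Some genes of the lists are not reported here by name. Genes at 0 were set at a floor of 3 reads over the group for the medians that say so. Intervals are 95% exact binomial and cover counting error only, since reads of amplified cDNA are not independent molecules. Read recovery and ratios were tested on simulated data. Thinning drew 200000 reads a cell with a fixed seed. Python 3.11.15, numpy 2.4.6, pandas 2.3.3, scipy 1.17.1 and matplotlib 3.10.9 were used.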

Additional observations from a re-analysis of the deposited data

Results flagged for a closer look

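A library stood apart from the other 6 positive LS cells in a technical measure. The receptor-gene level of LS_5 was 26.8% of an even spread over exons, and the next highest, LS_36, had 6.65%. The gap exceeded Dixon's 95% limit for 7 values. This was 1 of 20 measures of the positive LS cells examined, and for normally spread values chance alone passes this limit in about 1 of 20 groups. The 7 levels were skewed, with a median of 0.541%, so the limit is only a rough guide. Negative LS cells reached 38.3%, above LS_5. LS_5 also had the most genes above 1 FPKM (11581), and it was the positive cell with reads of all 14 microglial genes. Without LS_5, the difference of the astrocyte core score in LS cells was 2.14.

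A cell outside the comparison held more astrocyte RNA than any cell within it. LS_1, set aside by name, had an astrocyte core score of 6.77, above all 37 negative LS cells (at most 3.61) and above LS_16 (6.28). It had 25 of 26 astrocyte core genes and 4 of 20 pan-neuronal genes, with 3869 Gfap and 709 Aqp4 reads but none of S100b, so the rule would have called it negative. Its levels were 1717 FPKM of Ntsr2, 1310 FPKM of Gjb6 and 9854 FPKM of Apoe.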

How the results depend on the processing

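The score differences and counts were recomputed under 179 alternatives, of which 165 stayed within 1 SD over cells or within 1.5 times. No score difference changed direction. A count has no direction to change, so the counts could only stay or move. Without single positive cells, the astrocyte core difference was 1.71 to 2.41 in LS and 0.59 to 2.44 in NS, and the pan-neuronal one -1.92 to -1.21 and -1.57 to -0.91. The higher astrocyte core genes were 14 to 19 in LS and 9 to 16 in NS, the shared ones 6 to 11 (6 without LS_16) and 4 to 10, and the lower pan-neuronal genes 15 to 18 and 14 to 18. A pseudocount of 0.1 gave an astrocyte core difference of 3.15 in LS. A 4-fold call left 4 shared and 5 pan-neuronal genes in LS, and 11 core and 2 shared genes in NS. With all 63 columns, 6 shared genes were higher in LS. Thinning to 200000 reads, with the calls of cells kept, left 1 positive NS cell deep enough and 8 core genes. Shared genes in NS numbered 12 against negative cells without any selecting gene and 13 against the 2 with a like number of genes. Asking for at least 3 reads of each selecting gene, or calling cells anew after thinning, left 0 positive NS cells. The log2 ratio of Slc1a2 in NS ranged from -2.05 without NS_10 to 3.07 without NS_5, that of Camk2a from -0.95 without NS_3 to 2.11 without NS_10, and that of Sox9 turned to 0.11 as a difference of mean log2(FPKM + 1). As alternatives added after seeing the data, LS cells with at least 10 pan-neuronal genes gave a core difference of 1.87, and leaving out NS_14 gave 1.72 in NS. No positive NS cell had a receptor-gene level under 10%, so that setting gave no value there. No paired analysis was possible because LS and NS share replicate numbers by name alone, positive and negative cells lie within 1 group, and no result comes from a test.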

Other observations

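LS_2 and NS_1, also set aside by name, differed from LS_1. LS_2 had 10 of 26 astrocyte core genes, 854 genes above 1 FPKM and 7469 Gfap reads with no read of S100b or Aqp4. NS_1 had 16 astrocyte core genes, 8 of 20 pan-neuronal genes and 52 Gfap reads.

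The NS genes named by size held several with no list in common. Ptges3l, Rcc1, Igbp1 and Gsdmc were read in NS_3 and NS_5, Slc45a2, Lrrn1 and Zfp600 in NS_3 and NS_10, and Lyrm4 in NS_5 and NS_10, where 1 cell (NS_10) had 98.8% of its summed level.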
